A study of Homo sapiens with 12 samples.

Results

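The genes described here belong to families known mostly for making foreign compounds and reactive aldehydes harmless. They were chosen by name: protein-coding genes whose symbol starts with CYP and a digit, UGT, GST and a letter, ALDH, AKR, SULT, ADH and a digit, ABCB, ABCC or ABCG, each read by the single-symbol probe set with the highest mean. Of the 14118 genes with such a probe set, 11730 are protein-coding and 19 met the rule. These are 16 glutathione S-transferase genes (GSTA1 to GSTA5, GSTM1 to GSTM5, GSTO1, GSTO2, GSTP1, GSTT1, GSTT4 and GSTK1) and 3 others, ALDH2, ADH6 and UGT8. UGT8 met the rule by its name, but its enzyme makes a lipid. RefSeq lists 174 protein-coding genes under these names, and for 6 of the 10 name starts (CYP, AKR, SULT, ABCB, ABCC and ABCG) no gene was analysed here. In practice the set is therefore mostly the glutathione S-transferases, and nothing below speaks for the cytochromes P450, the sulfotransferases or the transporters.

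Detoxification is usually described in phases. Phase I enzymes, such as alcohol and aldehyde dehydrogenases, oxidise or reduce a compound, and phase II enzymes attach a soluble group to it. Cytosolic glutathione S-transferases are phase II enzymes that join reduced glutathione to electrophiles, and they fall into classes (alpha, mu, pi, theta, omega) that differ in substrates. Many of their genes respond to the transcription factors NRF2, which senses oxidants and electrophiles, and AHR, which senses planar aromatic compounds. In the gut epithelium these enzymes meet compounds from food and bacteria.

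The cells were HCT116, SW48 and RKO, colorectal cancer lines that the labels all give as p53 wild type; each is 1 established line, so a difference between lines is one between these 3 cultures. Each line was a control, called untreated here, or was given 10 µM Nutlin-3a for 8 h. The sample titles say only control, and not whether a vehicle was added. Nutlin-3a blocks the binding of MDM2 to p53 and so stabilises p53. Each of the 6 groups had 2 arrays (Affymetrix Human Gene 2.0 ST), which makes 12 arrays, and nothing in the labels says whether duplicates came from separate cultures. The p-values therefore rest on the spread between arrays, which may be technical. The text on RNA extraction speaks of thyroids, that on growth names only HCT116, and the dye given (Cy3) differs from the biotin of the labelling text, which the labels do not settle. The 5 measured thyroid markers had mean levels of 5.08 to 5.39 on every array, near the median of all values (5.01), and TG, the thyroglobulin gene, lay between 5.03 and 5.32. Of 11 measured targets of p53, listed with earlier results of these data known, 10 rose under Nutlin-3a in HCT116, 11 in SW48 and 10 in RKO. Over all genes 3.08%, 1.38% and 1.23% rose at the same threshold. The median log2 changes of the 11 were 1.33, 1.14 and 1.24. Their rise describes the response and is no independent check of the treatment. The size of the response differed between lines for 4 of these 11, against 0.503% of all genes.

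Values are the deposited log2 signals, so a difference of 1 is a doubling of signal, and levels of different probe sets are not set against each other. A gene was called where limma's moderated test gave a Benjamini-Hochberg adjusted p under 0.05 over all 14118 genes. Errors are standard errors from that model, with n = 2 arrays a group. In 5 of the 19 genes (ADH6, GSTA2, GSTA3, GSTA5 and GSTM5) every group mean was below the median of all values. The arrays carry no detection call in the values used here, so a fold against a dim signal may be understated. The alpha genes GSTA1, GSTA2, GSTA3 and GSTA5, and the mu genes GSTM1, GSTM2, GSTM4 and GSTM5, are close paralogs whose probes may share signal, so their separate values are uncertain.

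The 3 promoter windows below belong to GSTA4 and GSTM3, the genes that differed most between the lines, and UGT8, which fell under Nutlin-3a. Each is a RefSeq window on GRCh38.p14 of 300 bases, from 250 before to 50 after a start site, printed 5′ to 3′ on the gene's strand. Capitals mark matches, on either strand, to 2 short motifs. TGACNNNGC is the core of the antioxidant response element, which NRF2 binds. GCGTG is the core of the xenobiotic response element, which AHR binds, and it reads CACGC where it lies on the opposite strand. The positions are chr6:52995235-52995534 on the minus strand for GSTA4, chr1:109740989-109741288 on the minus strand for GSTM3 and chr4:114598152-114598451 on the plus strand for the first of 3 UGT8 windows.
GSTA4: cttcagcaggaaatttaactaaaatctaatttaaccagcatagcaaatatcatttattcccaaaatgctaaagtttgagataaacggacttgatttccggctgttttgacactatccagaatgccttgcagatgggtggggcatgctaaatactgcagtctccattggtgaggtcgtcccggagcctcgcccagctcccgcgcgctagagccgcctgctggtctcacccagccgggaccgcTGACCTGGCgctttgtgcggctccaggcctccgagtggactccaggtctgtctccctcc
GSTM3: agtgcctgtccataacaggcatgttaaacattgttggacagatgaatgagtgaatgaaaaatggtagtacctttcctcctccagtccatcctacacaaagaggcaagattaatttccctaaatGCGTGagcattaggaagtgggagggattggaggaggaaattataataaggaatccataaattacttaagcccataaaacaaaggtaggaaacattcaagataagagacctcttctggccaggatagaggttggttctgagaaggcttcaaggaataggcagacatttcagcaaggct
UGT8: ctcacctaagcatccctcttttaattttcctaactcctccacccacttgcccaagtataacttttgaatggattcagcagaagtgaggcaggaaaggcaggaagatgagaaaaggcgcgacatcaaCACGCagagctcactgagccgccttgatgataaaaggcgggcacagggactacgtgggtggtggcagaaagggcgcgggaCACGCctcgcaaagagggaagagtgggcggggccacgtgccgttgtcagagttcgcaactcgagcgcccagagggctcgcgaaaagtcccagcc
The GSTA4 window holds 1 antioxidant core, the GSTM3 window 1 xenobiotic core and the UGT8 window 2 xenobiotic cores. CG pairs numbered 14 in the GSTA4 window, 1 in that of GSTM3 and 18 in that of UGT8; 49.7%, 4.0% and 55.5% of all windows held fewer.

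RefSeq windows were at hand for 17 of the 19 genes, 20 windows in all, and none for ALDH2 or GSTT1. The counts that follow say nothing about either gene. An antioxidant core was found in 5 of the 20 (25.0%), against 13.3% of all 35116 windows, in GSTA4, GSTM1, GSTM5, GSTO1 and GSTP1. The shorter xenobiotic core was found in 6 (30.0%), against 36.5% of all windows, in GSTM3, GSTM4, GSTM5, GSTO2 and UGT8. The p53 half-site of 10 bases, searched on both strands, was found in 0 of the 20, against 6.6% of all windows. A match describes these letters only, and no match says only that the letters are not in this window.

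Nutlin-3a had small effects on most of these genes, as it had on most genes. The median size of the change was 0.12 in HCT116, 0.06 in SW48 and 0.11 in RKO, against 0.10, 0.09 and 0.09 over all genes. In HCT116 the aldehyde dehydrogenase gene ALDH2 rose and the glycosyltransferase gene UGT8 fell, by 1.27-fold and 1.25-fold. No GST gene was called in any line. At the shares of all genes given next, no call in so few genes does not show that they fail to respond. The p53 targets above moved by more than a doubling at their median, but they were listed with earlier results known. In HCT116 2 of the 19 genes were called (1 higher, 1 lower), against 5.11% of all genes (3.08% higher, 2.03% lower). In SW48 limma called 0, against 3.12% of all genes (1.38% higher, 1.74% lower), and in RKO 0, against 2.02% (1.23% higher, 0.793% lower). At an unadjusted p under 0.05 the counts were 4 in HCT116 (ALDH2, UGT8, GSTA4 and GSTT1), 1 in SW48 (UGT8) and 2 in RKO (GSTA1 and GSTP1). An intensity trend with a robust prior called 1 in SW48 (UGT8), and no setting tried called any in RKO. The median change of the 19 genes was 0.04 in HCT116, 0.04 in SW48 and -0.02 in RKO, against -0.01 in each line over all genes.

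UGT8 makes galactosylceramide, a lipid of myelin, and belongs to the UGT family by sequence although its sugar donor is UDP-galactose. In HCT116 its values were 10.08 and 10.11 untreated and 9.72 and 9.82 with Nutlin-3a. In SW48 they were 10.55 and 10.62 untreated and 10.36 and 10.33 with Nutlin-3a, and in RKO 10.95 and 10.95 untreated and 10.89 and 10.91 with Nutlin-3a. Both treated arrays lay below both untreated arrays in each line, as they did for 27% of all genes in HCT116, 27.4% in SW48 and 25.7% in RKO. The change was -0.32 ± 0.059 in HCT116 (1.25-fold lower, adjusted p = 0.0141). It was -0.25 ± 0.059 in SW48, just outside the threshold (adjusted p = 0.0606), and -0.05 in RKO. Averaged over the 3 lines UGT8 fell by 0.21 ± 0.034 (adjusted p = 0.00457), and this call held without any 1 of the 12 arrays (adjusted p at most 0.0184).

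ALDH2 is the mitochondrial enzyme that oxidises acetaldehyde and other short aldehydes. In HCT116 it read 9.50 and 9.59 untreated and 9.95 and 9.82 with Nutlin-3a. Both treated arrays lay above both untreated arrays, as they did for 23.9% of all genes. It rose 1.27-fold there (0.34 ± 0.073, adjusted p = 0.0269). In SW48 the change was 0.02, with values of 11.70 and 11.79 untreated and 11.76 and 11.78 treated. In RKO it was 0.11, with 11.14 and 11.15 untreated and 11.33 and 11.19 treated. There too the treated arrays lay above the untreated ones, as for 20.6% of all genes. The mean change over the lines was 0.16 ± 0.042 (adjusted p = 0.0409); for this mean effect 2 of the 19 genes were called, ALDH2 and UGT8, against 10.8% of all genes (4.33% higher, 6.44% lower).

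The HCT116 calls rest on few arrays. The ALDH2 call was lost without any 1 of the 4 HCT116 arrays (adjusted p up to 0.182) and the UGT8 call without untreated replicate 1 or 2 or Nutlin-3a replicate 1 (up to 0.097). The mean ALDH2 call was lost without any of 10 of the 12 arrays (up to 0.104), all but Nutlin-3a replicate 2 of HCT116 and of RKO. The F test that the 3 lines respond alike called 0 of the 19 genes, against 0.503% of all genes. At an unadjusted p under 0.05 it gave 3, UGT8 (adjusted p = 0.284), ALDH2 (adjusted p = 0.305) and GSTA4 (adjusted p = 0.343), so a difference between lines in the response of ALDH2 or UGT8 was not shown. Taken pair by pair the responses also gave 0 calls, against 0.212% of all genes for SW48 minus HCT116 (0.085% higher, 0.127% lower), 0.248% for RKO minus HCT116 (0.085% higher, 0.163% lower) and 0.361% for RKO minus SW48 (0.212% higher, 0.149% lower). At an unadjusted p under 0.05 these pairs gave 2, 4 and 1.

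The remaining genes gave intervals rather than calls. In HCT116 the other 17 ranged from -0.64 for GSTT1, a theta-class transferase, to 0.25 for GSTA4, and the lowest adjusted p was 0.115. GSTT1 read 6.83 and 6.47 untreated and 6.40 and 5.61 with Nutlin-3a, and its 95% interval, -1.11 to -0.17 (adjusted p = 0.123), was the only one of the 17 that reached past a doubling or halving. GSTA4 read 4.57 and 4.74 untreated and 4.96 and 4.84 treated. In SW48 the 19 genes ranged from -0.25 (UGT8) to 0.21 (GSTM2) and in RKO from -0.48 (GSTA1) to 0.21 (GSTT1), and every 95% interval in these lines lay within a doubling or halving. The intervals lay within 0.5 of 0 for 11 of the 17 in HCT116, 14 of the 19 in SW48 and 13 of the 19 in RKO. The GSTA1 value in RKO came from untreated arrays at 5.59 and 6.20 against treated arrays at 5.44 and 5.39.

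GSTP1, the pi-class enzyme that is common in tumours, is the one measured gene of 16 in these families that had been listed for a published link to p53. It changed by 0.01 in HCT116, 0.07 in SW48 and 0.14 in RKO, and was called in no line. In RKO it read 10.69 and 10.72 untreated and 10.87 and 10.81 treated (adjusted p = 0.289).

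**Figure D1:**
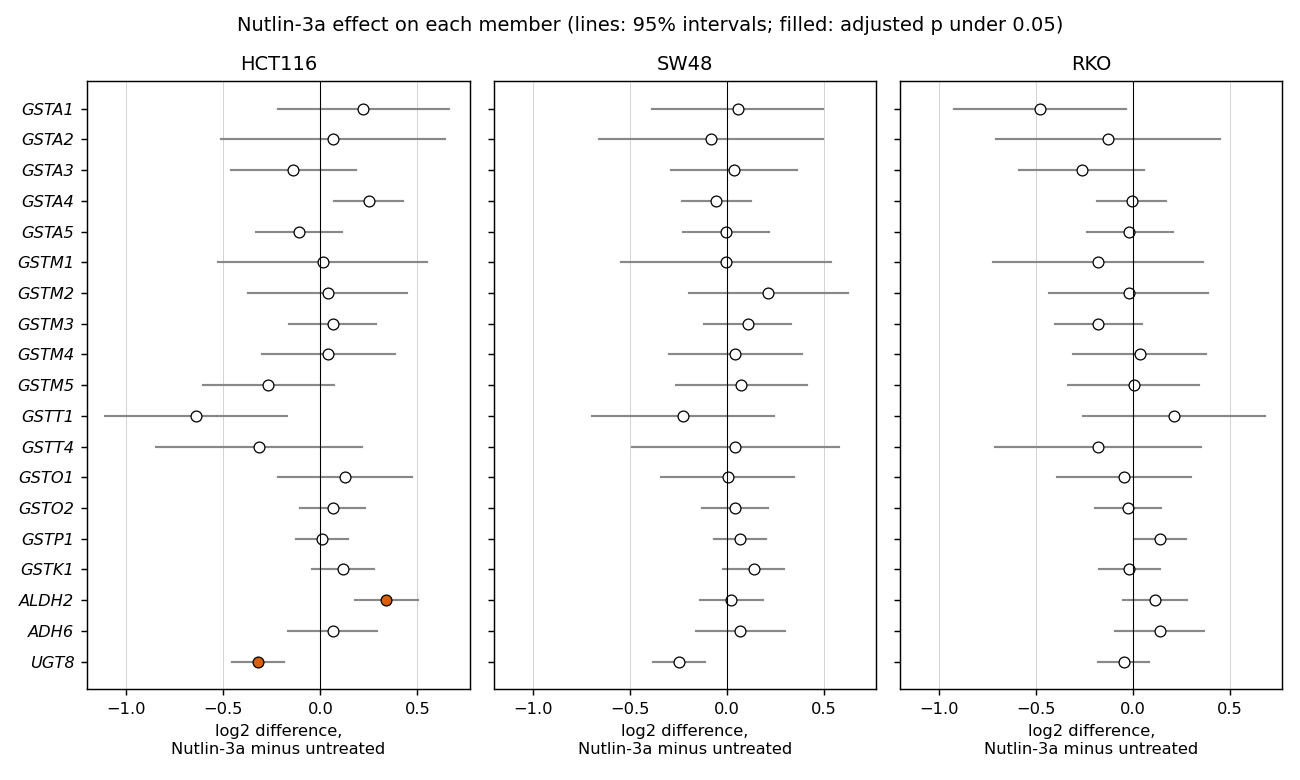
Change under Nutlin-3a (log2 difference, x axis) of each of the 19 genes in HCT116, SW48 and RKO; points are model estimates, lines 95% intervals, and filled points the genes called. ALDH2 (0.34) and UGT8 (-0.32) in HCT116 are the filled points, and GSTT1 in HCT116 has the estimate farthest from 0 (-0.64) with an interval that reaches -1.11.

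The untreated lines differed far more than treated and untreated cells of a line. HCT116 had the lowest signal of ALDH2, GSTA4, GSTT1 and GSTM4, SW48 the highest of ALDH2, GSTM4 and GSTK1, and RKO the highest of GSTA4, GSTM3 and UGT8. Of the 19 genes 13 were called in at least 1 of the 3 pairs of lines, and 4 (ALDH2, GSTA4, GSTM4 and UGT8) in all 3. Called genes at least 2-fold apart in some pair numbered 7: ALDH2, GSTA4, GSTK1, GSTM3, GSTM4, GSTO2 and GSTT1. Differences between lines are common over all genes. For the counts just given no share of all genes was worked out, so they only describe the 19 genes. The counts per pair can be read against such a share. For SW48 against HCT116, 9 of the 19 were called, all higher in SW48, against 44.9% of all genes (22.7% higher, 22.1% lower). For RKO against HCT116, 11 were called (10 higher, 1 lower), against 41.5% (22.4% higher, 19% lower). For RKO against SW48, 8 were called (3 higher, 5 lower), against 44.7% (23.6% higher, 21.1% lower).

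The share called was thus near that of all genes. The direction against HCT116 was less even: 9 of 9 and 10 of 11 called genes had the lower signal in HCT116. The median difference was 0.21 for SW48 minus HCT116 and 0.32 for RKO minus HCT116, against 0.00 and 0.01 over all genes. The median size of the difference was 0.41, 0.48 and 0.39 in the 3 pairs (SW48 and HCT116, RKO and HCT116, RKO and SW48), against 0.21, 0.19 and 0.21 over all genes. Both comparisons with HCT116 share its untreated arrays.

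**Figure D2:**
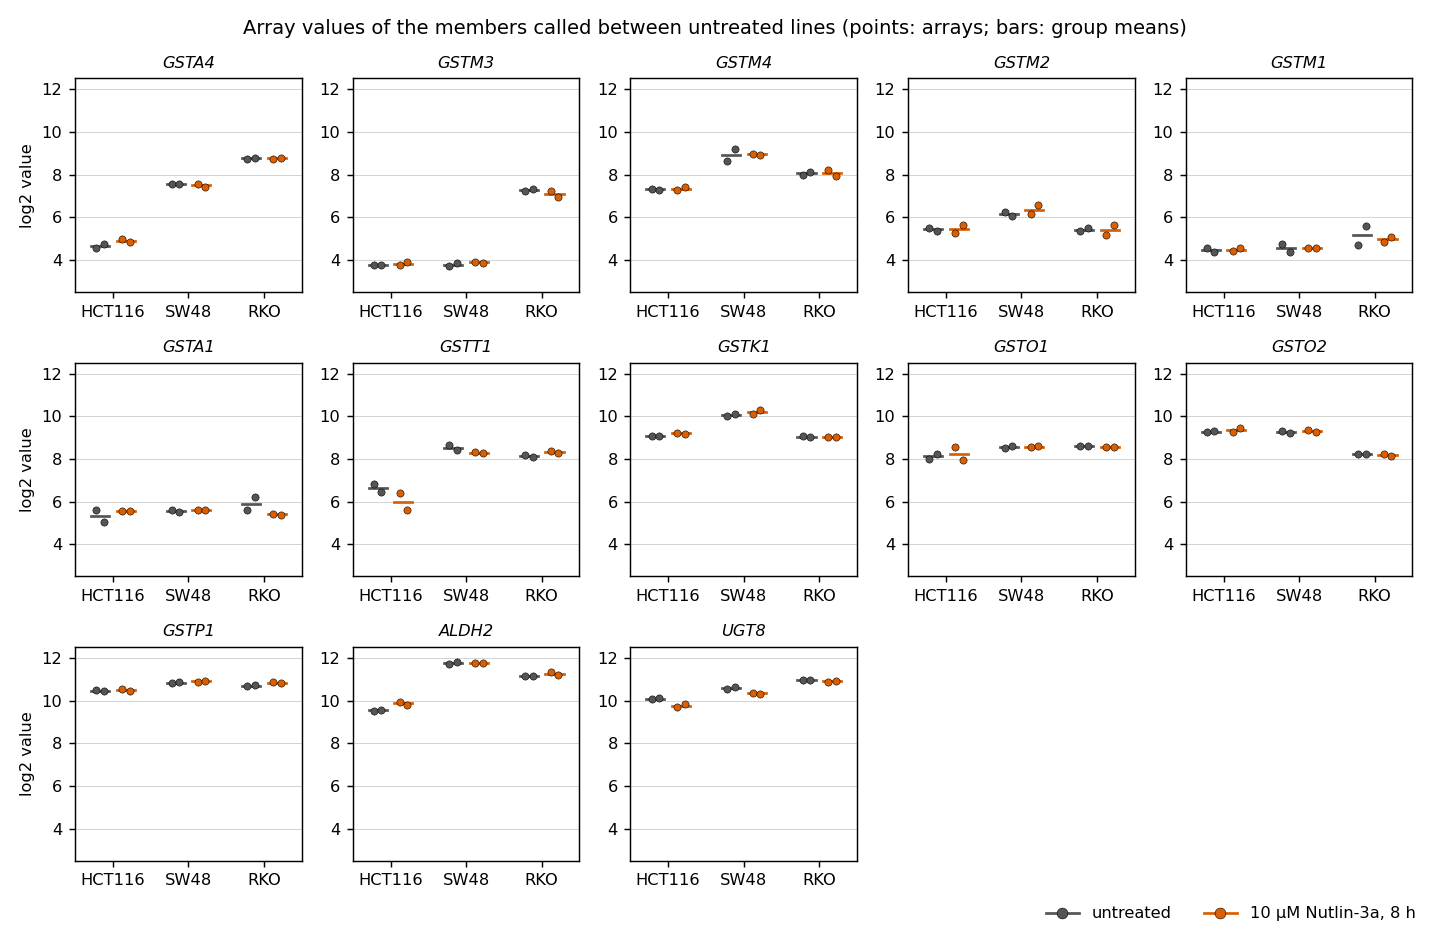
Deposited log2 value (y axis) on each array for the 13 genes called between untreated lines, by line, with untreated arrays in grey and Nutlin-3a arrays in orange; points are arrays and bars group means. GSTM3 is near 3.8 in HCT116 and SW48 and near 7.3 in untreated RKO, and GSTA4 goes up from HCT116 through SW48 to RKO, while treated and untreated points of a line lie close together in both.

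The alpha class was split. GSTA4, which acts on 4-hydroxynonenal, a product of lipid peroxidation, read 4.57 and 4.74 in untreated HCT116, 7.57 and 7.54 in SW48 and 8.73 and 8.79 in RKO. All 3 steps of that order were called. Its signal was 7.46-fold higher in SW48 than in HCT116 (2.90 ± 0.080, adjusted p = 1.45e-09), 17.2-fold higher in RKO than in HCT116 (4.11 ± 0.080, adjusted p = 1.51e-10) and 2.31-fold higher in RKO than in SW48 (1.21 ± 0.080, adjusted p = 8.22e-07). The HCT116 mean lay at percentile 43.0 of all values on those arrays, so both folds against HCT116 may be understated.

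The pattern of GSTA4 was not seen in the signals of its neighbours. RefSeq places GSTA2, GSTA1, GSTA5, GSTA3 and GSTA4 in this order on chromosome 6. GSTA1, a major alpha enzyme of liver and gut, read 5.63 and 5.06 in HCT116, 5.60 and 5.51 in SW48 and 5.59 and 6.20 in RKO, and these ranges overlap. It was called for RKO against HCT116 (0.55 ± 0.20, adjusted p = 0.0487), but that call was lost without any of 10 of the 12 arrays (adjusted p up to 0.354), all but untreated replicate 1 of HCT116 and of RKO. The difference was 0.26 without untreated HCT116 replicate 2 and 0.24 without untreated RKO replicate 2. The call was also lost with the replicate block (adjusted p = 0.0652) and with these 2 groups fitted alone (adjusted p = 0.166). With Nutlin-3a arrays in place of untreated ones the difference was -0.15. GSTA2, GSTA3 and GSTA5 were called in no untreated pair. All their group means were below the median of all values, so a difference between lines could be missed there.

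The mu genes lie side by side on chromosome 1 in the order GSTM4, GSTM2, GSTM1, GSTM5 and GSTM3. GSTM3, a mu enzyme known from testis and brain, read 3.76 and 3.75 in HCT116, 3.71 and 3.85 in SW48 and 7.22 and 7.30 in RKO. RKO stood apart from both other lines, 11.3-fold above HCT116 (3.50 ± 0.10, adjusted p = 2.21e-09) and 11.2-fold above SW48 (3.48 ± 0.10, adjusted p = 1.89e-09). HCT116 and SW48 did not differ beyond their spread, and their means lay at percentiles 23.0 and 23.7 of all values, so both folds may be understated.

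GSTM4, at the other end of the cluster, had another order. It read 7.32 and 7.29 in HCT116, 8.63 and 9.18 in SW48 and 8.00 and 8.10 in RKO. SW48 was 3.04-fold above HCT116 (1.60 ± 0.15, adjusted p = 1.24e-05) and 1.81-fold above RKO (adjusted p = 0.00103), and RKO was 1.68-fold above HCT116 (adjusted p = 0.00275). GSTM2 was also highest in SW48, with 6.23 and 6.06 against 5.51 and 5.34 in HCT116 and 5.34 and 5.50 in RKO. SW48 stood 1.64-fold above HCT116 (adjusted p = 0.00861) and 1.65-fold above RKO (adjusted p = 0.00825). The first GSTM2 call was lost without untreated HCT116 replicate 2 or SW48 replicate 1 (adjusted p up to 0.0614), the second without untreated SW48 replicate 1 or RKO replicate 1 (up to 0.0583).

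GSTM1 read 4.54 and 4.39 in HCT116, 4.74 and 4.38 in SW48 and 4.69 and 5.61 in RKO. The call for RKO against HCT116 (0.68 ± 0.24, adjusted p = 0.0458) rests on 1 RKO array: it was lost without any of 11 of the 12 arrays (adjusted p up to 0.327), all but untreated RKO replicate 1, and the difference was 0.22 without untreated RKO replicate 2 and 1.14 without replicate 1. It was also lost with the replicate block (adjusted p = 0.0505) and with these 2 groups fitted alone (adjusted p = 0.129). GSTM5 was called in no untreated pair.

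Among the other classes, GSTT1, which conjugates small halogenated compounds, was low in HCT116. It read 6.83 and 6.47 there, 8.63 and 8.41 in SW48 and 8.17 and 8.10 in RKO. SW48 was 3.67-fold (1.88 ± 0.21, adjusted p = 3.9e-05) and RKO 2.8-fold (1.49 ± 0.21, adjusted p = 0.000244) above HCT116, and SW48 and RKO were not called apart. GSTT4, also of the theta class, was called in no pair. GSTK1, the kappa enzyme of mitochondria and peroxisomes, was high in SW48. Its values were 10.00 and 10.12 in SW48, 9.07 and 9.09 in HCT116 and 9.06 and 9.02 in RKO. SW48 was 1.97-fold above HCT116 (adjusted p = 1.63e-06) and 2.03-fold above RKO (adjusted p = 1.23e-06).

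The omega genes GSTO1 and GSTO2, thiol transferases and dehydroascorbate reductases, are neighbours on chromosome 10. For RKO against HCT116 they were called in opposite directions, though the GSTO1 call was weak. In no other pair of untreated lines were both called. GSTO2 was the one gene called lower in RKO than in HCT116. It read 9.26 and 9.30 in HCT116, 9.31 and 9.24 in SW48 and 8.21 and 8.23 in RKO, so RKO was 2.08-fold below HCT116 (-1.06 ± 0.076, adjusted p = 1.77e-06) and 2.07-fold below SW48 (adjusted p = 1.53e-06). GSTO1 read 8.01 and 8.24 in HCT116, 8.52 and 8.61 in SW48 and 8.62 and 8.59 in RKO. It was 1.35-fold higher in SW48 (adjusted p = 0.0415) and 1.39-fold higher in RKO (adjusted p = 0.0303) than in HCT116. The first of these calls was lost without any of 9 of the 12 arrays (up to 0.227), all but untreated HCT116 replicate 2 and the Nutlin-3a arrays of HCT116. The second was lost without untreated HCT116 replicate 1 or either untreated RKO array (up to 0.182). Quantile normalization lost both (adjusted p = 0.0705 and adjusted p = 0.07), and the replicate block lost the first (adjusted p = 0.0546).

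GSTP1 differed little. It read 10.50 and 10.44 in HCT116, 10.84 and 10.86 in SW48 and 10.69 and 10.72 in RKO, and was 1.3-fold higher in SW48 (adjusted p = 0.000452) and 1.17-fold higher in RKO (adjusted p = 0.0105) than in HCT116. The call for RKO was lost without untreated HCT116 replicate 2 or RKO replicate 2 (up to 0.0735).

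Outside the transferases of glutathione, ALDH2 followed the order HCT116, RKO, SW48, with values of 9.50 and 9.59, 11.14 and 11.15, and 11.70 and 11.79. SW48 was 4.61-fold above HCT116 (2.21 ± 0.073, adjusted p = 5.44e-09), RKO 3.03-fold above HCT116 (1.60 ± 0.073, adjusted p = 6.52e-08), and RKO 1.52-fold below SW48 (adjusted p = 6.71e-05). UGT8 followed the order HCT116, SW48, RKO. It was 1.41-fold higher in SW48 (adjusted p = 6.56e-05) and 1.81-fold higher in RKO (adjusted p = 1.48e-06) than in HCT116, and 1.28-fold higher in RKO than in SW48 (adjusted p = 0.000596). ADH6, a class V alcohol dehydrogenase, read between 3.29 and 3.64 on the 12 arrays and was called in no comparison.

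The Nutlin-3a arrays gave a second set of line comparisons on other arrays, added after the untreated values had been seen. Both sets come from 1 model and share its estimate of each gene's spread. Nutlin-3a also changed these genes little, so a call that recurs is no independent repeat. The share of calls that recur over all genes was not worked out. SW48 against HCT116 called 10 of the 19 genes (9 higher, 1 lower), against 46.8% of all genes (23.3% higher, 23.5% lower), and 8 of the 9 untreated calls recurred. RKO against HCT116 called 9 (8 higher, 1 lower), against 42.4% (22.7% higher, 19.7% lower), and 8 of the 11 recurred. RKO against SW48 called 8 (3 higher, 5 lower), against 44.6% (24% higher, 20.7% lower), and 8 of the 8 recurred. The untreated calls that did not recur were those of GSTO1, GSTA1 and GSTM1, and GSTA2 and GSTM5 were called on the treated arrays but not on the untreated ones. GSTT1 is an example of a difference that was larger with treatment: RKO minus HCT116 was 1.49 on untreated and 2.34 on Nutlin-3a arrays, though the change in that difference was not called (0.85 ± 0.30, adjusted p = 0.307).

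**Figure D3:**
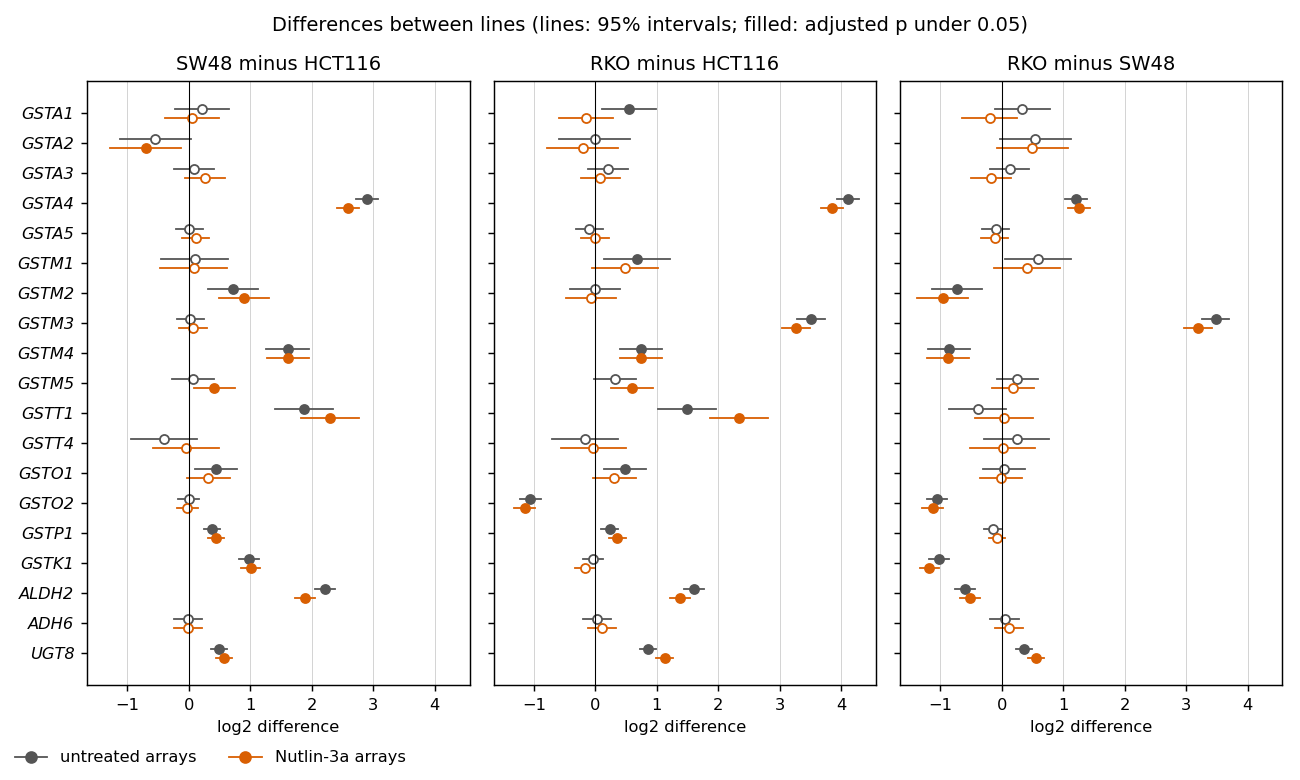
Difference between lines (log2, x axis) for each of the 19 genes in the 3 pairs, on untreated arrays (grey) and on Nutlin-3a arrays (orange); points are model estimates, lines 95% intervals, and filled points the genes called. The estimates for GSTA4, GSTM3, ALDH2 and GSTK1 lie close together on both sets of arrays, whereas GSTA1 for RKO minus HCT116 is 0.55 on one and -0.15 on the other.

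The lines also differed in markers of intestinal epithelium, and the part of this in the differences above was not tested. The mean of the 11 measured markers was 6.77 to 6.82 on the HCT116 arrays, 7.40 to 7.45 on those of SW48 and 5.66 to 5.73 on those of RKO. For SW48 against HCT116 3 of the 11 were called higher and 3 lower, against 22.7% and 22.1% of all genes. For RKO against HCT116 0 were higher and 5 lower, against 22.4% and 19%. For RKO against SW48 0 were higher and 8 lower, against 23.6% and 21.1%. CEACAM5 (4.88), LGR5 (2.91) and CDX2 (2.22) were the 3 higher in SW48 than in HCT116, and the keratins KRT18 (-0.74), KRT19 (-1.39) and KRT20 (-0.86) the 3 lower. EPCAM, the epithelial adhesion molecule, read 11.04 and 10.99 in untreated HCT116, 11.11 and 11.12 in SW48 and 6.43 and 5.64 in RKO. The means of the marker lists of other cells varied less over the 12 arrays, from 4.86 to 5.01 for 9 hepatocyte genes, 5.48 to 6.02 for 4 immune genes, 3.97 to 4.41 for 3 fibroblast genes and 4.54 to 4.77 for 4 endothelial genes. Single genes of these lists still differed: CD68, of macrophage lysosomes, was 3.94-fold higher in RKO than in HCT116 (adjusted p = 4.59e-09) and 3.84-fold higher than in SW48 (adjusted p = 4.1e-09). In both comparisons LUM was also called higher in RKO (0.52 and 0.43), and LYZ (-0.32 and -0.24) and CLDN5 (-0.44 and -0.45) lower. Any batch of culture or hybridisation that runs along with the lines cannot be told apart from them.

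The sensors that control many detoxification genes were read next. Of 24 listed receptors and partner factors 11 were measured. AHR, the aryl hydrocarbon receptor, was high in HCT116 and SW48 and dim in RKO: its values were 10.46 and 10.51, 9.96 and 9.93, and 3.92 and 3.53. RKO lay 109-fold below HCT116 (-6.77 ± 0.11, adjusted p = 5.47e-11) and 74.6-fold below SW48 (-6.22 ± 0.11, adjusted p = 8.71e-11), and its mean stood at percentile 21.3 of all values. TIPARP, a target of AHR that represses it, was 1.81-fold lower in RKO than in HCT116 (adjusted p = 2.04e-06) and 2.07-fold lower than in SW48 (adjusted p = 3.48e-07). PPARG, a lipid-sensing nuclear receptor, was 5.08-fold lower in SW48 and 6.1-fold lower in RKO than in HCT116 (adjusted p = 1.81e-06 and 1.01e-06). In all, 7 of the 11 sensors were called for SW48 against HCT116 (3 higher, 4 lower), 8 for RKO against HCT116 (3 higher, 5 lower) and 8 for RKO against SW48 (3 higher, 5 lower), where 44.9%, 41.5% and 44.7% of all genes were called. Under Nutlin-3a limma called 0 of the 11 in each line, against 5.11% of all genes in HCT116, 3.12% in SW48 and 2.02% in RKO. At such shares a count of 0 in so few genes does not show that they fail to respond. At an unadjusted p under 0.05 there were 1, 1 and 0 in HCT116, SW48 and RKO.

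Of 18 listed NRF2 targets outside the families 10 were measured. For SW48 against HCT116 6 of the 10 were called, all lower in SW48, against 44.9% of all genes (22.1% lower). They were led by TXNRD1, the cytosolic thioredoxin reductase, which read 8.77 and 8.83 in HCT116 and 7.44 and 7.65 in SW48 (2.38-fold lower, adjusted p = 9.66e-07). The 6 called for RKO against SW48 were higher in RKO, against 23.6% of all genes, led by HMOX1, the haem oxygenase that responds to stress (2.48-fold, adjusted p = 2.54e-08). For RKO against HCT116 3 were called higher and 3 lower, against 41.5% of all genes. NFE2L2, the gene of NRF2 itself, was 1.44-fold lower in RKO than in HCT116 (adjusted p = 0.000218) and 1.52-fold lower than in SW48 (adjusted p = 7.04e-05).

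HMOX1 was also the NRF2 target that rose under Nutlin-3a. It read 7.59 and 7.61 in untreated and 7.83 and 7.85 in treated SW48, and 8.89 and 8.93 in untreated and 9.22 and 9.18 in treated RKO. The rise was 1.18-fold in SW48 (adjusted p = 0.0453) and 1.22-fold in RKO (adjusted p = 0.0294), and the change in HCT116 was 0.10 (adjusted p = 0.356). The SW48 call was lost without any 1 of the 12 arrays (up to 0.204), the RKO call without any of 6 (up to 0.151), which were the 4 RKO arrays and the untreated HCT116 arrays. The mean rise over the lines, 0.21 ± 0.032 (adjusted p = 0.00232), held without each of the 12. In HCT116 0 of the 10 were called, against 5.11% of all genes, with 1 at an unadjusted p under 0.05.

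Other phase I enzymes numbered 21 measured of 30 listed. CBR1, a carbonyl reductase of quinones and aldehydes, read 5.39 and 5.31 in untreated HCT116, 8.33 and 8.42 in SW48 and 8.59 and 8.68 in RKO. It was 8.17-fold higher in SW48 (adjusted p = 3.37e-10) and 9.76-fold higher in RKO (adjusted p = 1.79e-10) than in HCT116, the side on which ALDH2, GSTA4 and GSTT1 also stood. MAOB, a monoamine oxidase, was dim and uneven in RKO at 4.20 and 5.56, against 8.89 and 8.88 in HCT116 and 9.85 and 9.92 in SW48 (-4.00 ± 0.39 and -5.00 ± 0.39). MAOA, its paralog, was 4.27-fold lower in SW48 and 4.65-fold lower in RKO than in HCT116 (adjusted p = 3.04e-08 and 2.29e-08). PON3, a lactonase, was low in SW48 at 3.84 and 3.74, against 6.50 and 6.51 in HCT116 and 7.24 and 7.12 in RKO. In all, 11 of the 21 were called for SW48 against HCT116 (8 higher, 3 lower; 44.9% of all genes), 13 for RKO against HCT116 (6 higher, 7 lower; 41.5%) and 12 for RKO against SW48 (4 higher, 8 lower; 44.7%).

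Under Nutlin-3a CBR1 rose 1.22-fold in HCT116 (adjusted p = 0.0379), where it is dim, from 5.39 and 5.31 to 5.68 and 5.59. DHRS2, a short-chain dehydrogenase, rose 1.29-fold in SW48 (adjusted p = 0.043). CYB5A, the cytochrome b5 that hands electrons to phase I enzymes, fell by 0.14 ± 0.034 in the mean of the 3 lines (adjusted p = 0.0253). The CBR1 call was lost without any of 8 arrays (up to 0.187), all but the untreated ones of SW48 and RKO. The DHRS2 call was lost without any of 9 (up to 0.244), all but untreated SW48 replicate 2 and the Nutlin-3a arrays of RKO. The CYB5A call was lost without any of 7 (up to 0.0719), all but replicate 2 of untreated HCT116, treated SW48, untreated RKO and treated RKO, and replicate 1 of untreated SW48. In RKO 0 of the 21 were called, against 2.02% of all genes, with 3 at an unadjusted p under 0.05.

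Other phase II and cofactor genes numbered 19 measured of 24 listed. NNMT, which methylates nicotinamide, read 7.50 and 7.44 in untreated RKO, against 4.07 and 3.88 in HCT116 and 4.17 and 3.97 in SW48, the pattern of GSTM3. PAPSS2, which makes the sulfate donor of sulfotransferases, had lower values along the order HCT116 (8.46 and 8.53), SW48 (6.23 and 6.31) and RKO (4.63 and 4.88). PTGES, a microsomal prostaglandin E synthase related to the microsomal GSTs, was 7.91-fold lower in SW48 and 5.89-fold lower in RKO than in HCT116 (adjusted p = 4.81e-08 and 1.59e-07). In all, 10 of the 19 were called for SW48 against HCT116 (7 higher, 3 lower), 11 for RKO against HCT116 (5 higher, 6 lower) and 11 for RKO against SW48 (6 higher, 5 lower), where 44.9%, 41.5% and 44.7% of all genes were called.

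Under Nutlin-3a PTGES rose 1.59-fold in HCT116, from 8.77 and 8.61 to 9.37 and 9.34 (0.67 ± 0.13, adjusted p = 0.0193). HAGH, an enzyme of the glyoxalase pathway, rose 1.22-fold in HCT116 (adjusted p = 0.0357). NAT2, an arylamine acetyltransferase, rose 1.28-fold in SW48 (adjusted p = 0.0467), from 3.04 and 3.09 to 3.40 and 3.44, values at or below percentile 14.4. For the mean effect 4 of the 19 rose, these 3 and the microsomal transferase gene MGST2 (0.26 ± 0.067, adjusted p = 0.0374), and 0 fell, against 10.8% of all genes (4.33% higher, 6.44% lower). The PTGES call in HCT116 was lost without any 1 of the 4 HCT116 arrays (up to 0.118). The HAGH call was lost without any of 9 arrays (up to 0.231), all but untreated HCT116 replicate 2 and the Nutlin-3a arrays of SW48. The NAT2 call was lost without any of 10 (up to 0.232), all but the Nutlin-3a arrays of HCT116, and the mean calls of these 4 genes without any of 6 to 11 of the 12 arrays (up to 0.0987). In RKO 0 of the 19 were called, against 2.02% of all genes, with 2 at an unadjusted p under 0.05.

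Retinoid enzymes are close relatives of the alcohol and aldehyde dehydrogenases in function, and 10 of 19 listed genes were measured. DHRS3, which reduces retinaldehyde to retinol, gave the largest Nutlin-3a change of these 5 lists. It read 6.49 and 6.52 in untreated SW48 and 7.47 and 7.47 with Nutlin-3a, a rise of 1.96-fold (0.97 ± 0.092, adjusted p = 0.000331) that held without any 1 of the 12 arrays. In RKO it went from 7.21 and 6.96 to 7.36 and 7.56 (0.37, adjusted p = 0.073) and in HCT116 from 9.50 and 9.56 to 9.66 and 9.58 (0.09, adjusted p = 0.665). RDH10, a retinol dehydrogenase, rose 1.29-fold in SW48 (adjusted p = 0.0172), a call lost without either untreated SW48 array or Nutlin-3a replicate 2 (up to 0.128). RDH13 fell by 0.22 ± 0.049 in the mean of the lines (adjusted p = 0.0168). In HCT116 and in RKO 0 of the 10 were called, against 5.11% and 2.02% of all genes, with 4 and 2 at an unadjusted p under 0.05.

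Of the 10 retinoid genes 8 were called for SW48 against HCT116 (3 higher, 5 lower), 5 for RKO against HCT116 (1 higher, 4 lower) and 8 for RKO against SW48 (4 higher, 4 lower), where 44.9%, 41.5% and 44.7% of all genes were called. CRABP2, which carries retinoic acid to the nucleus, read 10.06 and 10.08 in HCT116 and 10.30 and 10.21 in RKO, but 6.30 and 6.17 in SW48, 14.3-fold below HCT116 (adjusted p = 1.91e-10). DHRS3 was 8.14-fold lower in SW48 and 5.44-fold lower in RKO than in HCT116 (adjusted p = 3.06e-09 and 1.69e-08).

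**Figure D4:**
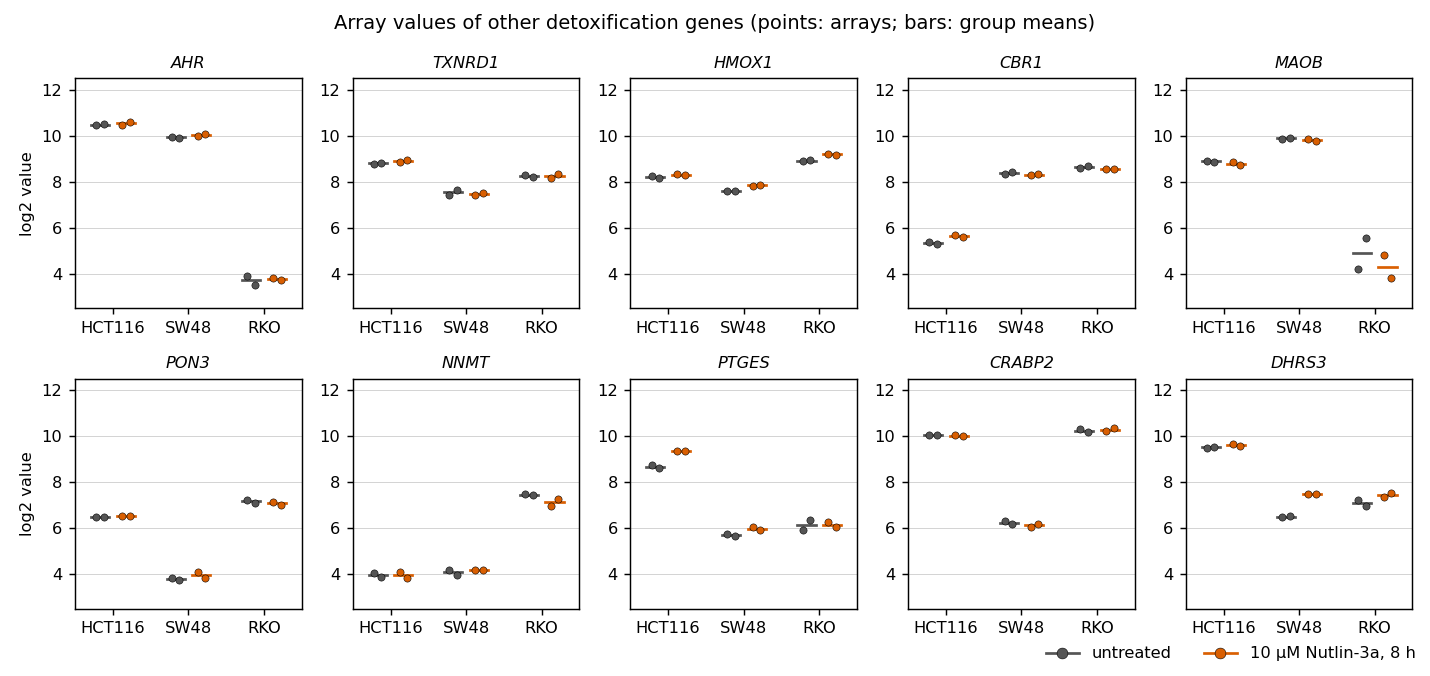
Deposited log2 value (y axis) on each array for 10 genes of the sensor, NRF2, phase I, phase II and retinoid lists, by line, with untreated arrays in grey and Nutlin-3a arrays in orange; points are arrays and bars group means. AHR and MAOB are dim in RKO, PON3 and CRABP2 low in SW48, CBR1 low in HCT116, and the treated points of DHRS3 in SW48 (7.47 and 7.47) and of PTGES in HCT116 (9.37 and 9.34) stand above the untreated ones.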

How the data were processed

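RNA was hybridised to 12 Affymetrix Human Gene 2.0 ST arrays, 2 for each of 6 groups. The authors deposited log2 values for 37270 probe sets, made with GCOS per the submitters' processing notes; for its version, background correction, summarization and normalization the sources used here give nothing, and the log base was read from the range of the values (column medians 4.97 to 5.05). A platform table gave 14530 probe sets 1 gene symbol and 22740 none. The highest-mean probe set was kept for each of 14118 genes.

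One model of 6 group means was fitted to all genes with limma 3.58.1 in R 4.3.3 (lmFit and eBayes), with Benjamini-Hochberg adjustment over all genes and a threshold of 0.05. It was tested on simulated data. Named genes are all called family members, up to the 8 largest per direction and comparison, and up to 4 called genes per further list; a few others are named beside them. The family members and all lists were chosen with earlier results of these data known. Alternatives were quantile normalization, median centring, the mean of a gene's probe sets, a dim-gene filter, an intensity trend with a robust prior, a threshold of 0.01, a replicate block, fits of the compared groups alone, and leaving out each array. No interval beyond the model's can be given, since 2 arrays a group limit the precision.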

Additional observations from a re-analysis of the deposited data

Results flagged for a closer look

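No gene of the detoxification families was singled out here. A difference of the Nutlin-3a response was called for 7 genes of the further lists, 2 of them in the enzyme lists. The call came from the F test or, where that gave none, from a pair of lines. DHRS2 and LGR5 were called only in a pair. No share of all genes was worked out for this combined rule. DHRS2 read 5.66 and 5.86 in untreated and 6.16 and 6.10 in treated SW48, against 4.98 and 5.00 in untreated and 4.76 and 4.57 in treated RKO. The response in RKO minus that in SW48 was -0.69 ± 0.12 (adjusted p = 0.0455). That call was lost without any 1 of the 12 arrays (adjusted p up to 0.157), and the F test over the 3 lines did not call it (adjusted p = 0.0728). DHRS3 was called by the F test of equal responses (adjusted p = 0.0435), with changes of 0.97 in SW48, 0.37 in RKO and 0.09 in HCT116. The SW48 response exceeded that of HCT116 by 0.88 ± 0.13 (adjusted p = 0.0326). The F test call was lost without any of 9 of the 12 arrays (adjusted p up to 0.141), all but both untreated RKO arrays and Nutlin-3a replicate 2 of RKO, and the pairwise call without any of 8 (up to 0.151), the arrays of HCT116 and SW48. Of the 11 p53 targets the F test called 4, against 0.503% of all genes. TP53INP1 (adjusted p = 0.0376) changed by 2.48 in HCT116, 1.73 in SW48 and 1.90 in RKO, a call lost without any of 11 arrays, all but untreated RKO replicate 1 (up to 0.138). TP53I3 (adjusted p = 0.0194) changed by 2.20, 1.10 and 1.38, a call lost without either untreated HCT116 or SW48 array or Nutlin-3a replicate 1 of HCT116 (up to 0.0885). GDF15 (adjusted p = 0.00906) changed by 1.54, 2.59 and 1.33, and SPATA18 (adjusted p = 0.00629) by 0.38, 1.67 and 0.07; both calls held without each of the 12 arrays. Of the intestinal markers LGR5 differed between RKO and SW48 (adjusted p = 0.0413), with changes of -0.63 in SW48 and 0.18 in RKO, a call lost without any of 11 arrays, all but untreated RKO replicate 2 (up to 0.159). The F test over the 3 lines did not call LGR5 (adjusted p = 0.0622). Groups of 2 arrays allowed no search for outlying arrays.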

How the results depend on the processing

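Of 666 alternative values, 587 kept direction and side of the threshold, 78 lost the call and 1 reversed. The HCT116 count of 2 fell to 0 at an adjusted p under 0.01 and to 0 with HCT116 fitted alone. The SW48 count of 0 became 1 with the intensity trend and robust prior and 1 with dim genes left out. The mean-effect count of 2 became 1 with arrays centred, 1 at 0.01 and 1 with the replicate block. RKO against HCT116 gave 7 at 0.01 in place of 11. GSTA1 for RKO minus HCT116 reversed to -0.154 on Nutlin-3a arrays, an alternative chosen after seeing the data. The causes were not tested. Leaving out 1 array gave 0 to 2 calls in HCT116, 1 to 2 for the mean effect, 7 to 10 for RKO against HCT116, 7 to 9 for each other pair of lines, and 0 in SW48, RKO and the F test.

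Replicate numbers showed no sign of pairing the arrays. For each group the difference of replicate 1 minus replicate 2 was taken over all genes. Between groups these differences correlated at -0.127 to 0.055 over 15 pairs of groups. With the replicate block the counts were 2 in HCT116, 1 for the mean, 8 for SW48 against HCT116, 9 for RKO against HCT116 and 8 for RKO against SW48.

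Over all genes, HCT116 gave 721 calls, but 1228 with the trend, 274 at 0.01, 208 fitted alone and 260 to 692 without 1 array. SW48 gave 441, but 870, 188, 115 and 188 to 394. RKO gave 285, but 760, 84, 31 and 97 to 226, with 436 when dim genes were left out and 188 with the block. The mean effect gave 1520, but 639 at 0.01, and the F test 71, but 288 with the trend, 12 at 0.01, 31 with the block and 15 to 39 without 1 array. Centring or quantile normalization moved the median of all genes by at most 0.04. The dim-gene filter kept 14 of the 19 genes, and differences near background cannot be judged without detection calls.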
